A study of Mus musculus with 10 samples.

Results

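The glucocorticoid receptor gene *Nr3c1* and 9 genes known to be induced by the receptor (*Fkbp5*, *Tsc22d3*, *Per1*, *Sgk1*, *Zbtb16*, *Klf9*, *Mt1*, *Mt2* and *Pdk4*) were followed in cells from the distal tips of embryonic mouse lungs. They were taken by gene symbol from a table of 17813 named genes on Affymetrix mouse genome arrays. All 10 had a value, each from 1 probe set. *Nr3c1* lies on chromosome 18, and the others on chromosomes 17 (*Fkbp5*), X (*Tsc22d3*), 11 (*Per1*), 10 (*Sgk1*), 9 (*Zbtb16*), 19 (*Klf9*), 8 (*Mt1* and *Mt2*) and 6 (*Pdk4*). The later group was 5 arrays of GFP+ cells sorted from E17.5 lungs after trypsin digestion, and the earlier group was 5 arrays of tip epithelium dissected by hand from E11.5 lungs after dispase. The embryos of both groups are given the genotype *Id2-CreER; Rosa26R-fGFP*. The mothers of the E17.5 embryos received tamoxifen at 150 μg per gram of body weight at E16.5, which makes CreER, expressed from *Id2*, switch on GFP in *Id2*-expressing cells and in the cells they give rise to. Stage, tamoxifen and the way of isolation cannot be told apart in these samples. In bulk samples, a lower signal from fewer cells of a type cannot be told apart from less RNA per cell.

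The glucocorticoid receptor is a transcription factor that waits in the cytoplasm bound to heat shock proteins. On binding cortisol or corticosterone it moves to the nucleus and binds glucocorticoid response elements, which are paired short sites facing each other, near the genes it induces. In the fetal lung it is known for promoting the maturation of the gas exchange epithelium, and synthetic glucocorticoids are given before preterm birth for this reason. How much active hormone a cell sees also depends on enzymes inside the cell that make or remove it.

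Signals are log2 values as deposited. No detection calls were used, so it is not known which dim signals exceed background, and folds are ratios of signals. The arrays of a stage correlated with each other at 0.985 to 0.995 over all probe sets, and arrays of different stages at 0.837 to 0.862. Array medians were 7.14 to 7.23 at E17.5, against 7.01 to 7.14 at E11.5. The stages were compared with limma over all 17813 genes, and genes with a p under 0.05 after Benjamini-Hochberg adjustment are called higher or lower. In this comparison 36.9% of all genes were called higher and 31.5% lower, so that a call on its own is common (31.9% and 39% after quantile normalization between arrays). The median over all genes was 0.03 on the log2 scale, which median centring of the arrays moved to -0.10. Of 22 tip and lung epithelial markers, 12 were higher and 7 lower at E17.5. *Grhl2*, an epithelial transcription factor, rose by 4.55, while *Shh*, a ligand of the tip epithelium, fell by 3.47 and *Etv4*, a target of FGF signalling in the tip, fell by 1.87 on the log2 scale. *Sox9* was at 9.15 to 10.05 on E17.5 arrays, against 9.51 to 9.74 on E11.5 arrays, and the epithelial adhesion gene *Epcam* at 13.14 to 13.50 on E17.5 arrays and 11.34 to 11.52 on E11.5 arrays. *Id2* itself, which drives the label, was at 12.54 to 13.15 at E17.5, against 10.31 to 10.97 at E11.5.

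The signal of the receptor gene, from its only probe set in the table, changed little between the stages. The signals of the 9 induced genes were all higher in the E17.5 cells. *Nr3c1* had log2 signals of 7.59, 7.42, 7.50, 7.48 and 7.84 on the E17.5 arrays, against 7.70, 7.72, 7.598, 7.64 and 7.76 on the E11.5 arrays. The ranges overlapped, with E17.5 replicate 5 above every E11.5 array and the other 4 E17.5 arrays below every one. The log2 fold change was -0.12 (standard error 0.09, 95% interval -0.32 to 0.09, adjusted p = 0.30 from limma), so that changes beyond 0.32 in either direction lie outside the interval. The call depended on scaling, since *Nr3c1* passed as lower after quantile normalization (log2 fold change -0.35, adjusted p = 0.0051) and after median centring (-0.25, adjusted p = 0.046). A difference nearer to 0 than that of *Nr3c1* was found for 2680 of the 17813 genes.

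**Figure D1:**
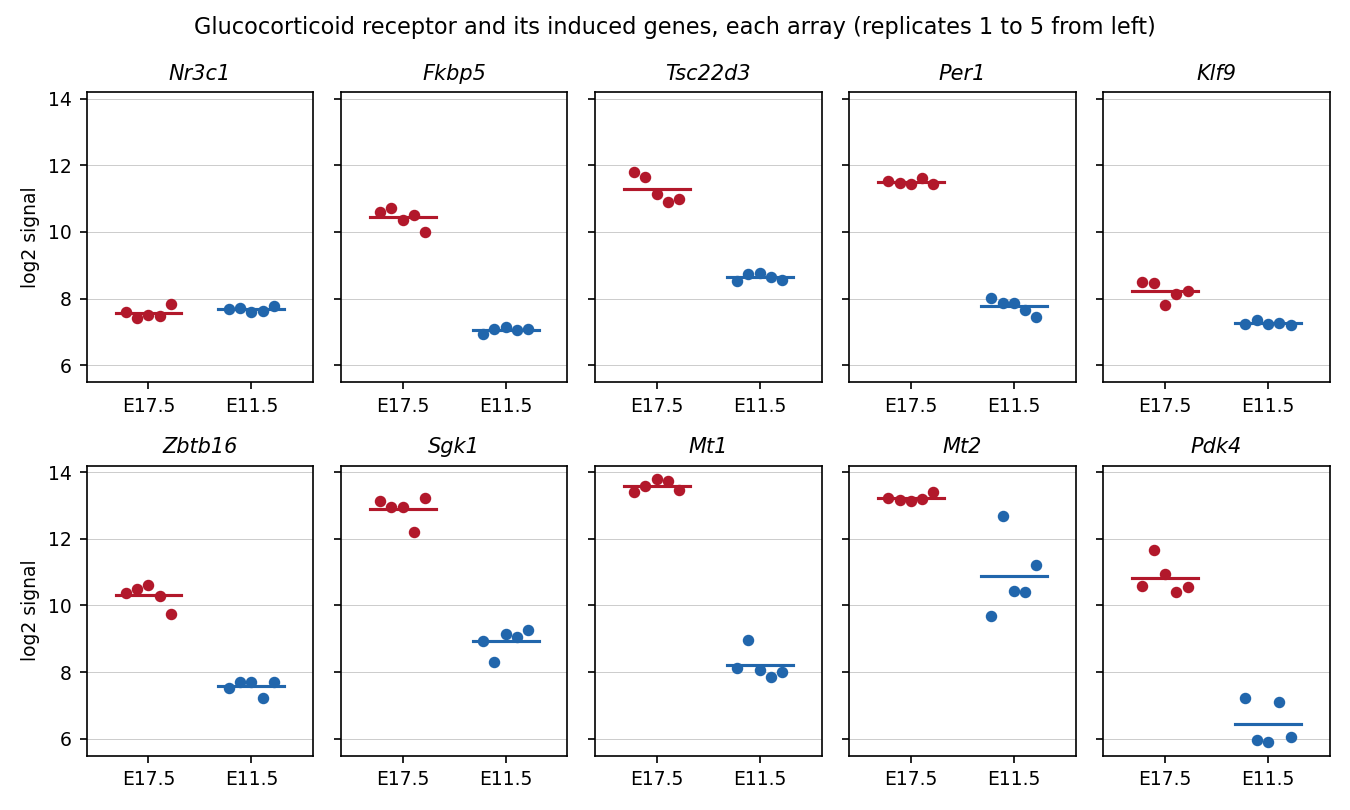
Log2 signal (y axis) of each gene on the 5 arrays of E17.5 (red, left) and the 5 arrays of E11.5 (blue, right), replicates 1 to 5 from left to right, bars giving the stage means. The arrays of the stages overlap for *Nr3c1* alone, and for *Mt2* the E11.5 array of replicate 2 (12.69) lies near the E17.5 arrays.

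All 9 induced genes were called higher at E17.5, where 36.9% of all genes were and 68.4% were called in either direction, and for all 9 every E17.5 array lay above every E11.5 array, which held for 32.3% of all genes, while the reverse order held for 26.3%. Among the 9705 genes with a mean at or above the median of all probe sets, 48.8% were called higher and 35.1% lower. The 9 induced genes are all among these brighter genes. That mean is over all 10 arrays, so a rise at E17.5 can itself lift a gene into this set. *Pdk4*, for example, was at 6.44 at E11.5, where 39.1% to 50.9% of probe sets were dimmer. At least 2-fold higher were 8 of the 9 induced genes, against 24.2% of all genes. Their median log2 fold change was 3.39, beside a median of 0.03 over all genes, and single values ran from 0.97 for *Klf9* to 5.41 for *Mt1*. As a mean over the 9 genes, the signal was 11.46, 11.58, 11.36, 11.23 and 11.22 on the E17.5 arrays, against 8.02, 8.29, 8.02, 8.02 and 8.06 on the E11.5 arrays.

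*Fkbp5* encodes FKBP51, a co-chaperone that lowers the affinity of the receptor for hormone and so forms a short feedback loop. Its log2 signals were 10.59, 10.73, 10.36, 10.52 and 9.99 on the E17.5 arrays, against 6.93, 7.08, 7.13, 7.04 and 7.07 on the E11.5 arrays. Replicate 5 was the lowest of the E17.5 arrays and still 2.85 above the highest E11.5 array. *Fkbp5* rose 10.5-fold (3.39 on the log2 scale with a standard error of 0.13; adjusted p = 2.2e-10 from limma). Its closest relative *Fkbp4*, which encodes the co-chaperone FKBP52 and has the opposite action on the receptor, rose by a like amount, 10.2-fold (11.47 ± 0.25 at E17.5 and 8.12 ± 0.17 at E11.5, SD, n = 5 arrays each).

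*Tsc22d3* encodes GILZ, a leucine zipper protein that binds NF-κB and AP-1 and mediates part of the anti-inflammatory action of glucocorticoids. Its log2 signals were 11.79, 11.66, 11.13, 10.89 and 10.99 on the E17.5 arrays, against 8.54, 8.73, 8.76, 8.64 and 8.57 on the E11.5 arrays. Replicates 1 and 2 stood above the other 3 within E17.5, and the E11.5 arrays lay within 0.22 of each other. The rise was 6.25-fold (2.64 on the log2 scale with a standard error of 0.17; adjusted p = 2.8e-08). The other family members did not share 1 direction. *Tsc22d2* rose 2.20-fold and *Tsc22d4* fell by 1.36 on the log2 scale. *Tsc22d1* has probe sets that disagree, at 3.23 for the brighter and -0.88 for the dimmer, both past the threshold.

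*Per1* is a core repressor of the circadian clock that is also an early target of the receptor. Its log2 signals were 11.54, 11.49, 11.45, 11.62 and 11.43 on the E17.5 arrays, against 8.02, 7.87, 7.86, 7.65 and 7.45 on the E11.5 arrays. The E17.5 arrays were within 0.19 of each other, the narrowest spread of the 10 genes at that stage, and *Per1* rose 13.3-fold (3.74 on the log2 scale with a standard error of 0.11; adjusted p = 2.5e-11). *Klf9* encodes a zinc finger factor of the Krüppel-like family that acts as a repressor downstream of the receptor. It had 8.50, 8.45, 7.81, 8.14 and 8.23 on the E17.5 arrays, against 7.23, 7.35, 7.24, 7.27 and 7.19 on the E11.5 arrays. This was the smallest of the 9 rises, 1.96-fold (0.97 on the log2 scale with a standard error of 0.12; adjusted p = 1.8e-05), with the lowest E17.5 array 0.46 above the highest E11.5 array. Against a null of a 2-fold change it did not pass (adjusted p = 1, limma treat).

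*Zbtb16* encodes PLZF, a BTB zinc finger repressor known as a strongly glucocorticoid-responsive gene in several tissues. Its log2 signals were 10.39, 10.49, 10.63, 10.28 and 9.74 on the E17.5 arrays, against 7.51, 7.70, 7.70, 7.22 and 7.71 on the E11.5 arrays. Replicate 5 was the lowest at E17.5, as it was for *Fkbp5*. The rise was 6.69-fold (2.74 on the log2 scale with a standard error of 0.16; adjusted p = 1.5e-08). The probe sets of *Zbtb16*, *Tsc22d3*, *Klf9* and *Mt1* carry a suffix (_x, _a or _s). It marks possible matches to further transcripts, of the same gene or of other genes. Leaving such probe sets out keeps 6 of the 10 genes, with 5 called higher.

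Around *Per1*, the other clock genes moved in both directions. Of 18 measured, 11 were higher (61.1%) and 4 lower (22.2%), and the list median was 0.82 (log2). The activators *Arntl* (13.6-fold) and *Clock* (11.9-fold), the repressor *Per2* (17.6-fold) and *Tef*, a PAR domain factor under clock control (44.0-fold), were among those that rose. *Dbp*, a relative of *Tef* that usually follows the clock closely, fell by 1.37 on the log2 scale, *Per3* fell by 1.27 and *Ciart*, a clock repressor, fell by 0.70. *Csnk1d*, a kinase that marks PER proteins for breakdown, was the fourth, at -1.43 for its brighter probe set and at 2.80 for the dimmer one. No source used here gives the time of day at which lungs were taken.

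*Sgk1* encodes a kinase that holds the epithelial sodium channel at the cell surface, and it is induced through both the glucocorticoid and the mineralocorticoid receptor. Its log2 signals were 13.14, 12.96, 12.95, 12.22 and 13.22 on the E17.5 arrays, against 8.93, 8.31, 9.14, 9.05 and 9.28 on the E11.5 arrays. Replicate 4 at E17.5 and replicate 2 at E11.5 were lower than the other arrays of their stage. *Sgk1* rose 15.5-fold (3.96 on the log2 scale with a standard error of 0.21; adjusted p = 5.6e-09). Its relative *Sgk3* fell by 1.67 on the log2 scale, and *Sgk2* stood at -0.40 on the log2 scale (adjusted p = 0.11). The 3 subunits of the sodium channel itself also rose, *Scnn1a* 15.6-fold, *Scnn1b* 12.3-fold and *Scnn1g* 13.9-fold, and *Atp1b1*, a subunit of the sodium pump, rose 9.19-fold.

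Promoter sequences from RefSeq (GRCm38.p6), 250 bases before to 50 after an annotated start, were matched by symbol for 8 of the 9 induced genes, with 16 starts in all. *Zbtb16* was not among them. The palindromic response element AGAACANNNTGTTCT was searched in these windows, where N is any base. It reads the same on both strands. It was found at 1 of the 16 starts, the fifth of 6 annotated for *Sgk1* in order of position, and in 3 of 32851 promoters of this length in the whole table (0.00913%). This window lies at chr10:21993640-21993939 on the plus strand, and it is shown because *Sgk1* is the member whose proximal sequence holds the full element, in capitals, at -189 to -175 from the start.
Sgk1: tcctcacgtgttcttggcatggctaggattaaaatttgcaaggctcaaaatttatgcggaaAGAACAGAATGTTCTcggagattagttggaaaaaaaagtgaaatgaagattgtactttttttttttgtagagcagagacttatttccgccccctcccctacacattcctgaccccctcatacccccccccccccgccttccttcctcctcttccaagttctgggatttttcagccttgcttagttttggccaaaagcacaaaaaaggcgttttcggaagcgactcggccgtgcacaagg
A match is a description of the letters and says nothing on binding in these cells. Sequence outside these windows was not searched, so a window without a match does not mean that the gene lacks an element.

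*Mt1* and *Mt2* encode metallothioneins, small cysteine-rich proteins that bind zinc and copper and are induced by metals, by glucocorticoids and by oxidative stress. They are neighbours on chromosome 8. For metals, the known element is the metal response element, searched as TGCGCNC or TGCACNC on both strands, which 25.7% of all promoter windows hold. The *Mt1* window (chr8:94178839-94179138, plus strand) holds 3 and the *Mt2* window (chr8:94172368-94172667, plus strand) holds 4. Both are shown, with these elements in capitals, because the paired genes differed in how far apart the stages lay.
Mt1: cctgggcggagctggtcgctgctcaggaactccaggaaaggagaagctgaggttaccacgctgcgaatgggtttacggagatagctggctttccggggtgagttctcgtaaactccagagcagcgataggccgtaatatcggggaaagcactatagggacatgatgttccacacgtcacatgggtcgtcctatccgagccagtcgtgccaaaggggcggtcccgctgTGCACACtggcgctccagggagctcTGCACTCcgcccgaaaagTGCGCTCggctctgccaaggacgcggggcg
Mt2: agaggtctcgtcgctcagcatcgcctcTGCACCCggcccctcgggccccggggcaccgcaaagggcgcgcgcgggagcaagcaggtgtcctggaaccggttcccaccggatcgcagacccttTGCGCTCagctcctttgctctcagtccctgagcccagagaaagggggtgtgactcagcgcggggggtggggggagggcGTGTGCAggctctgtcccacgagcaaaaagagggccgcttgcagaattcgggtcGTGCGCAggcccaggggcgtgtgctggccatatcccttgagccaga
A relaxed receptor element, GNACANNNTGTNC, which also covers the full palindrome and reads the same on both strands, is in 0.475% of all windows. It was found in the *Mt1* window as GGACATGATGTTC, at -94 to -82 from the start, and not in the *Mt2* window.

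*Mt1* had log2 signals of 13.41, 13.59, 13.81, 13.75 and 13.46 on the E17.5 arrays, against 8.12, 8.96, 8.05, 7.84 and 8.01 on the E11.5 arrays. It was the largest rise of the 9, 42.5-fold (5.41 on the log2 scale with a standard error of 0.19; adjusted p = 1.1e-10), and ranked 126 among all genes by rise. *Mt2* had 13.24, 13.17, 13.13, 13.21 and 13.40 on the E17.5 arrays, against 9.69, 12.69, 10.45, 10.40 and 11.22 on the E11.5 arrays. The E17.5 arrays were within 0.27 of each other, but those of E11.5 spanned 3.00, and on replicate 2 both metallothionein genes had their highest E11.5 signal. *Mt2* rose 5.07-fold (2.34 on the log2 scale with a standard error of 0.43; adjusted p = 0.00040), and without E11.5 replicate 2 the log2 fold change was 2.79. The genes are close copies and the *Mt1* probe set carries the suffix _s, so part of 1 signal may come from the other gene.

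The other genes of zinc and copper handling did not move as a block. Of 17 measured, 8 were higher (47.1%) and 6 lower (35.3%), and after quantile normalization 5 were higher. The zinc importers *Slc39a8* and *Slc39a4* rose 18.0-fold and 6.14-fold. *Slc30a1*, a zinc exporter that shares metal control with the metallothioneins, fell by 1.91 on the log2 scale, and *Mtf1*, the factor that binds metal response elements, fell by 0.83. The brain and squamous metallothioneins *Mt3* and *Mt4* had log2 fold changes of 0.30 (adjusted p = 0.10) and 0.09 (adjusted p = 0.53).

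*Pdk4* encodes a kinase that switches off pyruvate dehydrogenase and so spares glucose, and it rises in fasting, when glucocorticoids are high. Its log2 signals were 10.57, 11.67, 10.95, 10.42 and 10.55 on the E17.5 arrays, against 7.23, 5.96, 5.88, 7.09 and 6.05 on the E11.5 arrays. At E11.5, replicates 1 and 4 were above the other 3 by over 1 log2 unit. *Pdk4* rose 21.0-fold (4.39 on the log2 scale with a standard error of 0.32; adjusted p = 9.3e-08). Among its paralogues *Pdk2* rose 4.65-fold. *Pdk1* rose 1.37-fold as deposited but not after quantile normalization (log2 fold change -0.15) or median centring (0.32, adjusted p = 0.11), and it did not pass without E17.5 replicate 1 or E11.5 replicate 1. *Pdk3* stood at -0.18 as deposited (adjusted p = 0.13) but passed as lower after quantile normalization (-0.78, adjusted p = 9.4e-06) and median centring (-0.31, adjusted p = 0.019). Of 21 other genes of pyruvate dehydrogenase and fat burning, 14 were higher and 4 lower (7 after quantile normalization). *Dld*, a subunit of the dehydrogenase complex, rose 9.74-fold and *Cpt1a*, the gate of fatty acid entry into mitochondria, 6.21-fold. The 4 that fell were *Ppard*, *Ucp3*, *Pdp1* and *Pdhx*.

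**Figure D2:**
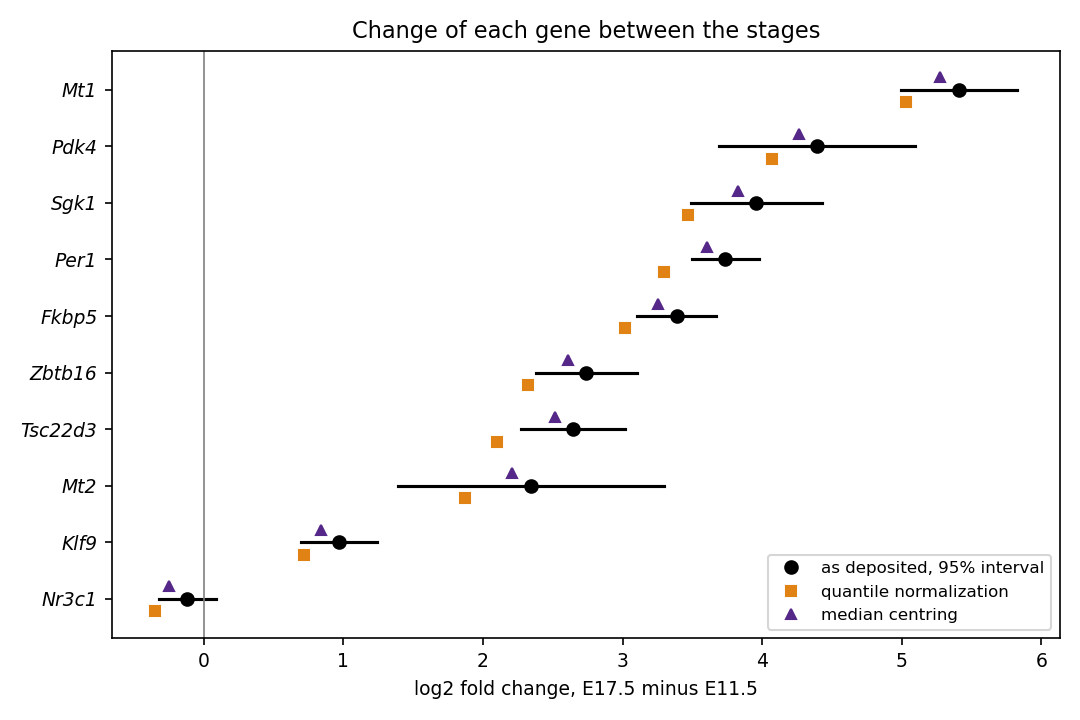
Log2 fold change, E17.5 minus E11.5 (x axis), of each gene, as deposited (black, with the 95% interval from limma), after quantile normalization (orange squares) and after median centring (purple triangles). The 9 induced genes lie to the right of 0 in each scaling and *Nr3c1* to the left, at -0.12, -0.35 and -0.25.

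Signals of different probe sets cannot be set against each other as levels, so receptor and targets were compared by their changes. In each array the signal of *Nr3c1* was taken from that of the target, and the E17.5 arrays were set against the E11.5 arrays in a two-sided exact permutation test, a comparison that does not depend on adding a constant to an array. For each of the 9 targets the change exceeded that of the receptor, in all 5 E17.5 arrays against all 5 E11.5 arrays. The excess was 5.52 for *Mt1*, 4.51 for *Pdk4*, 4.07 for *Sgk1*, 3.85 for *Per1*, 3.503 for *Fkbp5*, 2.86 for *Zbtb16*, 2.76 for *Tsc22d3*, 2.46 for *Mt2* and 1.09 for *Klf9* on the log2 scale. Each of the 9 tests had an exact p = 0.0079, the smallest that 5 arrays against 5 allow (adjusted p = 0.0079 over the 9 tests). This p was fixed by the gaps between the stages given above and adds no evidence to them. In each target the stages lay at least 0.44 apart, while *Nr3c1* ran only from 7.42 to 7.84 over all arrays. The stages came closest in *Mt2*, whose difference from *Nr3c1* was 5.555 to 5.755 at E17.5 but 1.99 to 4.97 at E11.5.

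In these bulk samples, transcripts of the enzymes that make or remove active hormone changed in opposite directions. *Hsd11b1* encodes the enzyme that regenerates active corticosterone from its inert 11-keto form. It had log2 signals of 11.04, 12.44, 11.94, 10.57 and 11.67 on the E17.5 arrays, against 4.91, 4.84, 5.39, 4.91 and 4.89 on the E11.5 arrays. It rose 93.3-fold (6.54 on the log2 scale with a standard error of 0.30; adjusted p = 1.1e-09 from limma), more than any of the 9 induced genes, against E11.5 signals that exceeded those of 27.8% to 33.6% of probe sets. *H6pd*, which supplies the NADPH this enzyme needs in the endoplasmic reticulum, rose 4.69-fold (11.83 ± 0.07 at E17.5 and 9.60 ± 0.16 at E11.5, SD, n = 5 arrays each). *Hsd11b2* encodes the enzyme that inactivates corticosterone. It had 5.47, 5.19, 6.10, 6.63 and 6.35 on the E17.5 arrays, against 10.89, 10.28, 10.48, 10.19 and 10.12 on the E11.5 arrays. It was 21.8-fold lower at E17.5 (-4.44 on the log2 scale with a standard error of 0.26; adjusted p = 1.3e-08), with a gap of over 3 log2 units between the stages. *Nr3c2*, the mineralocorticoid receptor, which binds the same hormone, had 6.32 to 6.89 at E17.5, against 5.26 to 6.03 at E11.5 and rose 1.85-fold (adjusted p = 0.00025).

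**Figure D3:**
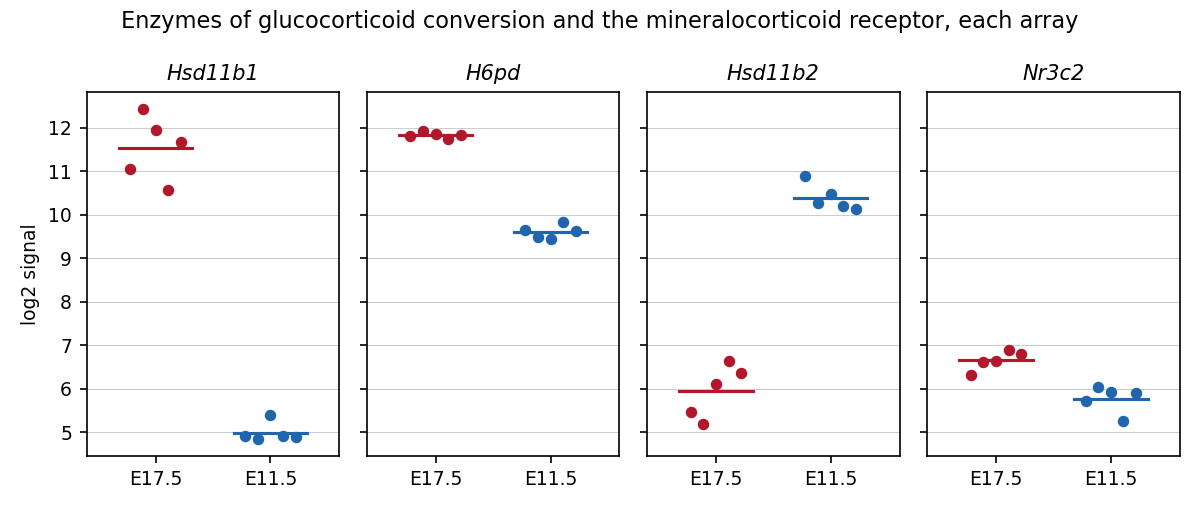
Log2 signal (y axis) of *Hsd11b1*, *H6pd*, *Hsd11b2* and *Nr3c2* on the 5 arrays of E17.5 (red, left) and the 5 arrays of E11.5 (blue, right), bars giving the stage means. *Hsd11b1* lies at 10.57 to 12.44 at E17.5, against 4.84 to 5.39 at E11.5, and *Hsd11b2* at 5.19 to 6.63 at E17.5, against 10.12 to 10.89 at E11.5.

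Over the 14 measured genes of glucocorticoid synthesis, conversion and transport, 5 were higher (35.7%) and 4 lower (28.6%), close to the shares over all genes. Besides *Hsd11b1* and *H6pd*, those that rose were the steroid exporters *Abcb1a* (5.67-fold) and *Abcb1b* (1.52-fold), and *Fdx1* (2.37-fold), which carries electrons to steroid-making P450 enzymes. Both exporters were dim at E11.5, so their folds are uncertain. There, 4% to 14.2% of probe sets were dimmer than *Abcb1a* and 13.3% to 17% dimmer than *Abcb1b*. Besides *Hsd11b2*, those that fell were the steroidogenic genes *Cyp21a1*, which fell by 1.63, *Cyp11a1*, which fell by 1.18, and *Star*, which fell by 0.61 on the log2 scale. *Cyp21a1* was dim at E17.5, where 17% to 23.7% of probe sets were dimmer, so the size of its fall is uncertain too.

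Among 10 chaperones and co-chaperones of the receptor, 5 were higher and 3 lower. After *Fkbp4*, the largest changes were a rise of *Hspa4*, a heat shock protein of the HSP110 family (2.73-fold), and falls of *St13*, the Hsp70-interacting protein, and of *Stip1*, the HOP adaptor that joins Hsp70 to Hsp90, by 3.95 and 1.14 on the log2 scale. *Hsp90aa1*, the inducible Hsp90, was at 0.36 (adjusted p = 0.027), but at -0.16 after quantile normalization and, without E17.5 replicate 1, E17.5 replicate 5 or E11.5 replicate 1, no longer past the threshold. The count of higher genes was 3 after quantile normalization, median centring or leaving out E17.5 replicate 5, and that of lower genes was 6 after quantile normalization. Of 15 coregulators, 6 were higher and 8 lower. The p160 coactivators differed in sign, as *Ncoa1* and *Ncoa2* rose by 1.81 and 2.41 while *Ncoa3* fell by 2.83 on the log2 scale. The mediator subunit *Med14* rose 10.6-fold. *Smarcd1*, a chromatin remodelling subunit that ties the receptor to the BAF complex, was called lower, with a mean of 3.43 at E17.5. Only 2.75% to 12.3% of probe sets were dimmer on those arrays, so the size of its fall is not given.

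A wider list of genes known to be induced by glucocorticoids in various tissues showed more rises than the table as a whole. Of 45 measured, 30 were higher (66.7%, against 36.9% of all genes) and 5 were lower (11.1%, against 31.5%), and the list median was 1.00 (log2). The largest rises were those of *Lcn2*, an iron-binding defence protein (11.87 at E17.5 and 4.25 at E11.5, where 15.5% to 28% of probe sets were dimmer), the transcription factors *Cebpd* (27.3-fold) and *Bcl6* (23.6-fold), and *Klf15* (22.4-fold), which acts with the receptor in fuel use. The 5 that fell were *Usp2*, *Cdkn1c*, *Glul*, *Snai2* and *Hif3a*. *Snai2*, an epithelial-mesenchymal transition factor, was lower in overlapping ranges (7.56 to 8.99 at E17.5, against 8.01 to 9.47 at E11.5). It passed only narrowly (adjusted p = 0.045), and did not without any single array other than E17.5 replicates 2 and 5 and E11.5 replicate 2. After quantile normalization 8 were lower.

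Of 19 measured genes of the fetal lung known to respond to glucocorticoids, 17 were higher and 2 lower, and every one passed. The surfactant genes *Sftpd* and *Sftpa1* and the water channels *Aqp1* and *Aqp5* led the rises. *Mdk*, a growth factor that falls as the lung matures, fell by 2.63 on the log2 scale. *Lpcat1*, a surfactant lipid enzyme, was called lower on its 1 probe set, with signals of 3.06 to 3.32 at E17.5 but 7.81 to 7.98 at E11.5. Only 2.2% to 3.89% of probe sets were dimmer on the E17.5 arrays, so the size of its fall is not given. Some genes of this list, such as *Sftpd* and *Aqp5*, also mark alveolar differentiation.

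Genes known to be repressed by glucocorticoids were higher too. Of 23 measured, mostly cytokine and chemokine genes, 20 were higher (87%) and the other 3 (*Ifnb1*, *Mmp13* and *Il11*) did not pass, and the list median was 2.76 (log2). *Ptgs2*, the inducible cyclooxygenase, was at 10.48 ± 0.44 at E17.5 and 3.26 ± 0.21 at E11.5 (SD, n = 5 arrays each), and no fold is given because only 0.627% to 6.77% of probe sets were dimmer on the E11.5 arrays. The chemokine *Cxcl1* rose 25.5-fold, and *Cxcl2* was at 11.18 at E17.5 and 4.00 at E11.5, where 10.8% to 18% of probe sets were dimmer.

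**Figure D4:**
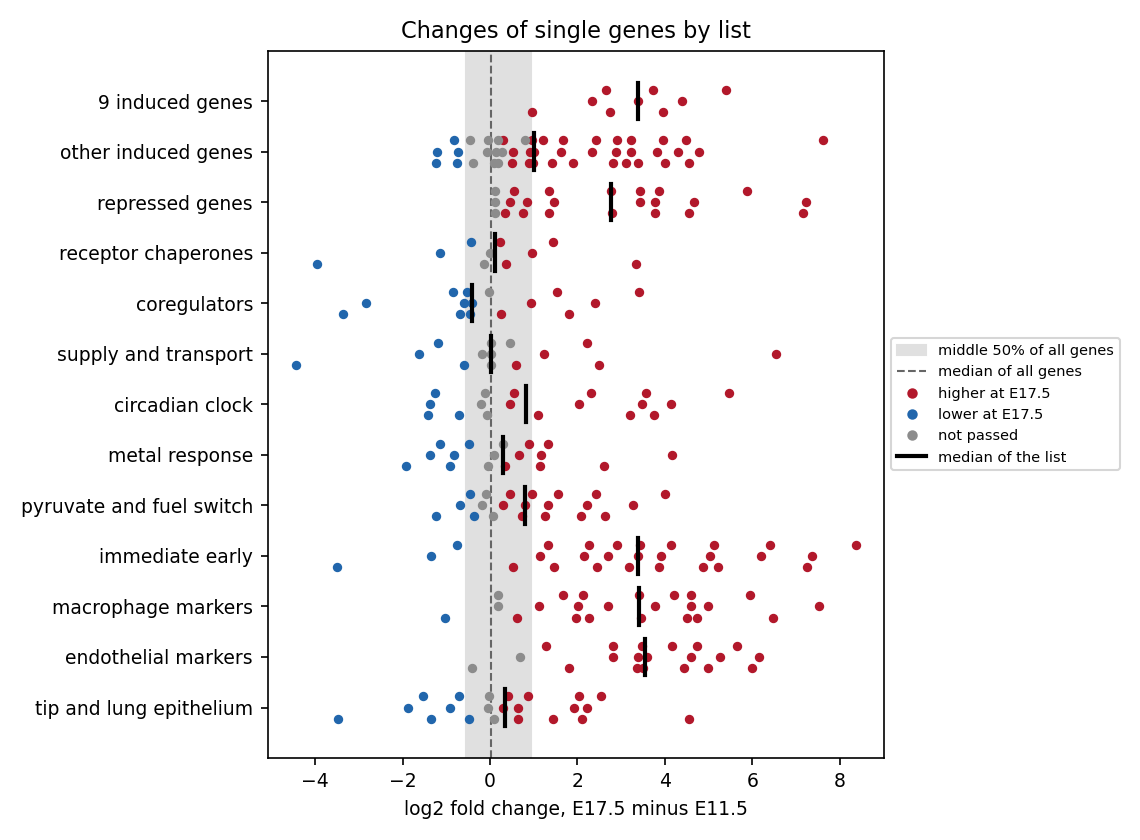
Log2 fold change, E17.5 minus E11.5 (x axis), of each measured gene of each list (rows), coloured red where called higher, blue where called lower and grey where not passed, with a black bar at the median of the list, over the middle 50% of all genes (grey band) and their median (dashed). The 9 induced genes have a median of 3.39, other induced genes 1.00, repressed genes 2.76, immediate early genes 3.39 and macrophage markers 3.404.

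*Per1* and *Sgk1* also respond to serum, and several of the 9 genes are expressed by leukocytes or vessels. Of 27 immediate early genes, 24 were higher and 3 lower, with *Fosb*, *Egr2* and *Fos* (151-fold) in the lead. Their mean signal was 10.81 to 11.07 on E17.5 arrays, against 7.54 to 7.71 on E11.5 arrays. Of 23 macrophage and monocyte markers 20 were higher, with a mean of 8.40 to 9.33 at E17.5, against 5.45 to 6.14 at E11.5. Of 20 endothelial markers 18 were higher, with a mean of 8.68 to 10.55 at E17.5, against 5.44 to 6.33 at E11.5. Mesenchymal markers were divided, with 8 of 20 higher and 7 lower. Of neutrophil and mast cell markers 11 of 16 were higher, of lymphocyte markers 8 of 13, and of erythroid markers 1 of 7, with 4 lower. The part of these cells and of handling in the rise of the 9 genes was not tested. Nor was their part in the changes of *Hsd11b1*, *H6pd* and *Hsd11b2*.

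Within the E17.5 arrays the 9 genes did not share 1 order. Replicate 4 was lowest for *Tsc22d3*, *Sgk1* and *Pdk4*, and replicate 5 for *Fkbp5*, *Per1* and *Zbtb16*, while the lowest array was replicate 3 for *Klf9* and *Mt2* and replicate 1 for *Mt1*. The macrophage list was lowest on replicates 4 (8.40) and 5 (8.73). The endothelial list was lowest on replicate 4 (8.68) and highest on replicate 5 (10.55). The 9 genes were called higher without any 1 of the 10 arrays.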

How the data were processed

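RNA was measured on 10 Affymetrix mouse genome arrays, 5 from sorted E17.5 cells and 5 from dissected E11.5 tips. After NuGEN amplification, the authors used Bioconductor in R for the arrays. The deposited values are log2 signals of 21204 probe sets, a scale read from their range. The treatment of background and scale, the package and the choice of probe sets make up what was not given in the sources used here. Of the probe sets, 17981 name 1 gene in the platform annotation. The brightest stood for a gene, and 99.1% of the 17813 genes have no other. Chromosomes come from RefSeq (GRCm38.p6) through Entrez identifiers, found for 17664 genes.

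The contrast E17.5 minus E11.5 was fitted with lmFit and eBayes of limma 3.58.1 in R 4.3.3, with Benjamini-Hochberg adjustment over all genes. The fit was also run on simulated data with few changed genes, a setting unlike these data, where most genes were called. Arrays are labelled as biological replicates. Whether litters differed is not said, so p-values measure only the spread between these samples. Replicate numbers were not taken as pairs. The 10 genes, the gene lists and the tests were chosen with earlier results of these data known. Genes named are the 10, in each list up to 4 with the largest called change, genes that a count of 5 or fewer needs, paralogues, the 5 nearest in pattern to *Nr3c1*, and *Hsd11b1*, *Hsd11b2* and *Nr3c2*. *Epcam*, *Sox9*, *Id2*, *Etv4*, the sodium channel and pump genes, *Mtf1* and *Ncoa1* were named after their values were seen. *Clock* and *Slc30a1* were also named outside these rules. The number of arrays limits the precision. Alternatives were other scalings, probe set rules, filters, models and leaving out each array. Figures were drawn with matplotlib 3.10.9.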

Additional observations from a re-analysis of the deposited data

Results flagged for a closer look

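A check of 276 groups of 5 arrays (138 genes named by rule, at each stage) looked for 1 array apart from the other 4 by over 0.71 of the range of the group. It marked 14, and chance gives about 14. Among the 10 genes and the enzymes of hormone conversion, *Sgk1* was low on E17.5 replicate 4 (log2 signal 12.22, nearest other array 12.95), *Mt1* high on E11.5 replicate 2 (8.96, nearest 8.12) and *Hsd11b1* high on E11.5 replicate 3 (5.39, nearest 4.91). For each of these 3 the stages stayed apart by over 2.9 log2 units.

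Replicate 1 of E11.5 was the array marked most often. It was low for the chaperone genes *Stip1* (12.20, nearest 12.62) and *Ppp5c* (9.41, nearest 9.70), for *Hif3a* (5.94, nearest 6.09) and for *Fkbp2* (11.03, nearest 11.55), and high for *Fkbp9* (11.58, nearest 11.21). On E17.5 arrays, *Usp2* was low on replicate 3 (7.12, nearest 7.47), *Zbtb20* low (7.66, nearest 8.37) and *Cd79b* high on replicate 1 (10.81, nearest 10.31), *Pdk3* low on replicate 2 (9.96, nearest 10.29) and *Cd3g*, a T cell receptor subunit, high on replicate 4 (8.18, nearest 6.34). *Lcn2* was high on E11.5 replicate 5 (4.79, nearest 4.17).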

How the results depend on the processing

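The 9 induced genes were called higher in each of 20 alternative tests in which they were measured, except *Klf9* against a 2-fold change. As each has 1 probe set, the rules on probe sets and the filter on dim genes could not change their fold changes. Without probe sets of suffix _x, _s or _a, 5 of 6 measured genes were higher. *Nr3c1* counted as the 1 lower gene after quantile normalization and after median centring, and its log2 fold change ran from -0.35 to -0.07 over the alternatives. Leaving out 1 array gave -0.19 to -0.08 for *Nr3c1*. The replicate block changed no call among the 10 genes in limma. A permutation test that flips the signs of the differences within the 5 pairs of equal number cannot go below an exact p = 0.062. It gave that p for the change over that of *Nr3c1* in *Mt1* (5.52), *Pdk4* (4.51), *Sgk1* (4.07), *Per1* (3.85), *Fkbp5* (3.503), *Zbtb16* (2.86), *Tsc22d3* (2.76), *Mt2* (2.46) and *Klf9* (1.09). As the stages did not overlap in these differences, no other p was possible. Arrays of equal number had correlations of their deviations of -0.29 to 0.07, which gave no sign of pairing. Whether a number marks a shared day or litter is not given, and these correlations cannot tell.

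Over the whole table, 3437 genes were higher and 2045 lower against a 2-fold change, and 3404 were lower when dim genes were left out. Of the other induced genes, 8 were lower after quantile normalization and 0 against a 2-fold change. Of values called as deposited or in the alternative, those of 8 genes changed sign. Values called in neither could also change sign, as for *Mt4* (-0.04 to 0.16). After quantile normalization these were *Hsp90aa1* (-0.16), *Dnaja1* (-0.19), *Fkbp1a* (-0.17), *Fkbp8* (-0.46), *Klf10* (-0.39) and *Pdk1* (-0.15). With another probe set they were *Tsc22d1* (-0.88 with the dimmer one or without suffixed ones) and *Csnk1d* (2.80, or 0.69 for the mean of its probe sets). The cause was not tested.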

Other observations

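Of the other steroid receptors, *Esr1*, the oestrogen receptor alpha, was at 6.84, 6.36, 6.13, 6.24 and 6.47 on the E17.5 arrays, against 3.88, 4.34, 4.00, 4.34 and 4.31 on the E11.5 arrays, a 4.69-fold rise (adjusted p = 3.5e-08 from limma). *Pgr*, the progesterone receptor, was at 3.86, 3.63, 3.70, 4.04 and 3.63 on the E17.5 arrays, against 5.82, 5.97, 5.86, 5.91 and 5.79 on the E11.5 arrays, and fell by 2.10 on the log2 scale (adjusted p = 1.3e-09). Both genes were dim at their lower stage, so these sizes are uncertain. At E11.5, 12.4% to 21.5% of probe sets were dimmer than *Esr1*, and at E17.5, 9.92% to 17.7% were dimmer than *Pgr*. Tamoxifen, which binds oestrogen receptors, was given for the E17.5 samples only, so its exposure and the stage cannot be told apart.

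The 5 genes whose signals, each centred on its own mean, followed those of *Nr3c1* most closely over the 10 arrays were *Slc12a8*, *Sfmbt1*, *Commd4*, *Aipl1* and *2010308F09Rik*, with root mean square differences of 0.066 to 0.085 log2 units. Their log2 fold changes were -0.16 to -0.06 and none passed the threshold as deposited. *Slc12a8* shared the high E17.5 replicate 5 of *Nr3c1* (4.48, against 3.92 to 4.21 on the other E17.5 arrays). Its signal was dim, with means of 4.17 at E17.5 and 4.25 at E11.5. As these genes were chosen for closeness to *Nr3c1* on the same arrays, their small changes and likeness to it are no separate result.

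Among paralogues of the 10 genes, 19 of 33 measured were higher (57.6%, against 36.9% of all genes) and 6 lower. FK506-binding proteins moved in both directions. *Fkbp7* rose by 3.53, *Fkbp14* by 3.17 and *Fkbp11* by 2.00, while *Fkbp3* fell by 1.30 and *Fkbp9* fell by 0.61 on the log2 scale. *Zbtb20* and *Zbtb32*, BTB zinc finger genes, rose by 2.25 and 2.49.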
